A study of Mus musculus with 80 samples.

Results

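The myelin sheath genes Mbp, Mobp, Mag, Mog, Opalin, Cldn11, Mal, Cnp and Ermn, were followed from brain homogenate through cell preparation, microglial sorting and ribosome pulldown. These 9 genes were chosen by symbol as well known myelin genes, with no measured value in the rule, and they stand among 16385 genes listed in at least 1 of the 2 tables used, 15919 in the sort comparison and 16000 in the cell preparation comparison. The choice was made with earlier results of these data known. All 9 were listed in both tables.

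Myelin is the wrap of membrane that oligodendrocytes lay around axons in the central nervous system. Mbp and Mobp encode proteins that hold the cytoplasmic faces of that membrane together, Mag and Mog encode adhesion proteins of its inner and outer surface, Cldn11 encodes its tight junction protein, and Mal and Opalin encode membrane proteins of the sheath. Cnp encodes an enzyme of the cytoplasmic channels within myelin and Ermn a cytoskeletal protein. Some of these transcripts, Mbp and Mobp above all, are carried out of the cell body and translated beside the sheath, so that myelin RNA is found both in oligodendrocyte cell bodies and in the myelin debris that forms when brain is broken up.

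The study asked how the way microglia are isolated changes the RNA measured. Brains came from Cx3cr1(Jung)-cre/Ert2+;NuTRAP+ mice of both sexes, all given tamoxifen at about 3 months of age (100 mg/kg per daily injection), so that cells with an active Cx3cr1 locus, microglia and other brain macrophages, made ribosomes tagged with eGFP and tagged nuclei. No group lacked the transgenes or tamoxifen. A hemisphere made up each sample, except that Dounce-Input needed the whole brain. Input was RNA of the whole preparation and TRAP (translating ribosome affinity purification) was RNA pulled down with the tagged ribosomes. In the sort comparison, Tissue was homogenate and Cell was a papain-digested, mechanically dissociated suspension prepared at warm temperature and cleared of debris. Both came from the same 4 mice. AutoMACS was that kind of suspension enriched on CD11b beads (4 mice). AutoMACS to Tyto was the bead fraction sorted again in a closed cartridge, from 3 of the autoMACS mice. Tyto (5 mice) and FACSAria (4 mice) were suspensions sorted in the cartridge or in a cytometer for cells positive for CD11b, CD45 and eGFP. These 2 groups had 3 mice in common. In the cell preparation comparison, with 4 mice a group, Cell was made without, (-), or with, (+), inhibitors of transcription and translation (actinomycin D, triptolide and anisomycin). Dounce was a suspension made in the cold by mechanical force alone, with a Percoll step after which the myelin layer was removed, and Tissue was the homogenate of the same 4 mice as in the sort comparison, so that the Tissue groups of both tables are not separate animals. Within the cell preparation comparison, Dounce, Tissue and the Cell suspensions came from separate mice. Preparation and mouse can therefore not be told apart in comparisons between them.

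CPM values below are the deposited expected read counts divided by a library size scaled with TMM (trimmed mean of M values) across all libraries of a table. Differences are log2 fold changes with their standard error from edgeR's quasi-likelihood test, and adjusted p-values are Benjamini-Hochberg values over all genes tested. A gene was called when its adjusted p was under 0.1 and its change was above 2-fold. Input libraries and TRAP libraries were fitted separately unless TRAP was set against Input. The fits held no term for the mouse, except where the mouse is named as a block. Library totals ran from 7129464 to 20168116 counts in the sort table and from 2471448 to 14650287 in the cell preparation table, where Dounce-TRAP was lowest. The labels were checked with marker lists. The 8 microglial markers took 0.0306% to 0.0486% of the counts of sort Tissue-Input, 0.585% to 0.718% of Cell-Input, 3.12% to 3.31% of Cell-TRAP and 2.14% to 3.98% of all sorted libraries. The 8 neuronal markers took a median of 0.769% in Tissue-Input, 0.0923% in Cell-Input and 0.359% in Dounce-Input.

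The genes lie on separate chromosomes except for Mal and Ermn, both on chromosome 2. On mm10, the build of the files, their spans are chr9:120149742-120176091 for Mobp, chr7:30899183-30914832 for Mag, chr17:37010740-37023398 for Mog, chr19:41063420-41077113 for Opalin, chr3:31149920-31164326 for Cldn11, chr2:127633226-127656695 for Mal, chr11:100574939-100581739 for Cnp and chr2:58045115-58052752 for Ermn. Genes on the other strand overlap Cnp (Dnajc7), Ermn (Galnt5) and Mog (Gm22388). The libraries kept the strand, so these pairs could be told apart in counting, whereas Gm38642 lies on the same strand as Mobp and could share reads with it.

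For 8 of the genes the RefSeq promoter table of GRCm38.p6 held the 250 bases before the transcription start, and Mbp had no entry. Because the results below turn on how differently Mag and Cnp behaved from Mobp and Opalin, these 4 upstream sequences are shown 5′ to 3′ on the coding strand. They were picked by those results, so what they hold is no independent support, and its part in the values was not tested. Mag had 3 windows in the table, of which the one closest to the start given by the files is shown. For Mag, Cnp and Mobp the GENCODE models begin farther out, so that by those models the last bases of the window lie inside the gene. Capitals mark matches, on either strand, to ACAAAG, the core bound by Sox proteins such as Sox10, and to CTGGCAC, the core bound by Myrf, both factors of oligodendrocytes. The windows are chr7:30914864-30915113 (minus strand) for Mag, chr11:100574689-100574938 (plus strand) for Cnp, chr9:120149492-120149741 (plus strand) for Mobp and chr19:41077114-41077363 (minus strand) for Opalin.
Mag: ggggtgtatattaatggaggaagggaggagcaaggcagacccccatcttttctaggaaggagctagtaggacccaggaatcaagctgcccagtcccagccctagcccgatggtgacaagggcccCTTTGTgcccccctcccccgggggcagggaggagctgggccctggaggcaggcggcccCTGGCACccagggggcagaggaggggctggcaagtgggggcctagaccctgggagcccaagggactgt
Cnp: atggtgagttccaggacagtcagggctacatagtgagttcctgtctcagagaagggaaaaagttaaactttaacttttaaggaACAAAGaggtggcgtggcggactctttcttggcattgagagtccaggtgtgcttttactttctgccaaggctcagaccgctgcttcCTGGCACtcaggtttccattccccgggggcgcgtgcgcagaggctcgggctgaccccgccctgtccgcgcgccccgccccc
Mobp: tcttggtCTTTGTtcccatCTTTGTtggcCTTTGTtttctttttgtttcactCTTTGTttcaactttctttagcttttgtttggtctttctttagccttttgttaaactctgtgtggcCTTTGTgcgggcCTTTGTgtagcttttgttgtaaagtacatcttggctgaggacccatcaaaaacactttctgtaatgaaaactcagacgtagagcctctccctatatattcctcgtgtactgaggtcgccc
Opalin: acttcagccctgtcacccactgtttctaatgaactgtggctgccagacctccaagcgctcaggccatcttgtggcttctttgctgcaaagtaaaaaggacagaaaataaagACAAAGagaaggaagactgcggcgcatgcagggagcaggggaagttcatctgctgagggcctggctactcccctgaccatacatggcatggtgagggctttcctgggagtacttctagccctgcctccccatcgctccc
Mag and Cnp each held 1 match of both kinds, at 126 and 68 bases before the start in Mag and at 167 and 81 bases in Cnp. Of the other Mag windows, the one at chr7:30914923-30915172 held the same pair, at 67 and 9 bases before its own start, and the one at chr7:30914322-30914571 held no match. Mobp held 6 Sox matches, at 243, 231, 221, 198, 132 and 120 bases, and Opalin held 1 at 139 bases. The windows of Mog, Cldn11, Mal and Ermn held neither. Among all 32851 promoter windows of this length in the table, 16.5% held ACAAAG and 4.19% held CTGGCAC, against 5 and 3 of the 10 windows of these 8 genes, which belong to 4 genes and 2 genes. CAGCTG, an E-box of the kind bound by Olig proteins, was in 13.0% of all windows and in none of the 10. A match is a string of letters and does not show that a factor binds there.

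In brain homogenate the 9 genes were abundant and even between mice. In sort Tissue-Input, Mbp was at 1589, 1663, 1441 and 1355 CPM in the 4 mice, Cnp at 323, 356, 332 and 298 CPM and Mog at 47.6, 50.8, 47.9 and 44.7 CPM. The highest mouse exceeded the lowest by a factor of 1.08 for Mal to 1.26 for Mobp. Ordered per kilobase of merged exons, mean levels in CPM per kb were 179 ± 16.5 (SD, n = 4) for Mbp, 89.9 ± 6.53 for Cnp, 71.05 ± 3.78 for Cldn11, 59.6 ± 2.12 for Mal, 50.9 ± 3.18 for Mag, 28.0 ± 1.47 for Mog, 21.8 ± 2.39 for Mobp, 14.8 ± 0.587 for Ermn and 4.29 ± 0.309 for Opalin. Each neighbour in this order was farther from the next than the sum of their SDs. Together the genes took 0.345% ± 0.0281 of the counts of Tissue-Input.

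**Figure D1:**
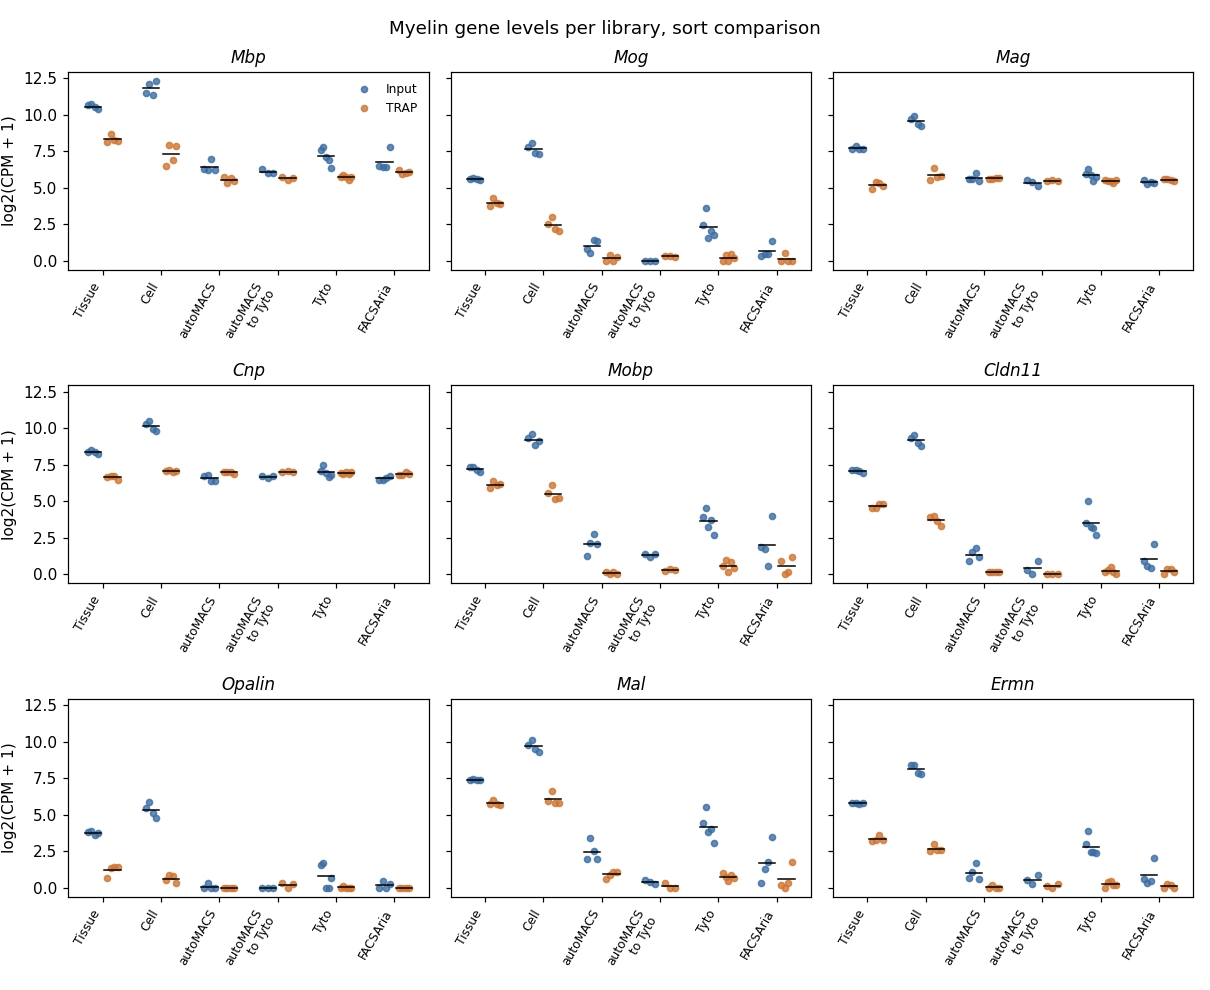
Level of each of the 9 myelin genes in every library of the sort comparison, as log2(CPM + 1) on the vertical axis and by preparation on the horizontal axis, with Input in blue, TRAP in orange, 1 point per library and a bar at the group mean. All genes stand highest in Cell-Input, and in sorted cells only Mbp, Mag and Cnp keep TRAP levels well above 0.

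Making a cell suspension raised all 9 genes in Input. Mag went from 203, 227, 201 and 199 CPM in Tissue-Input to 849, 972, 671 and 592 CPM in Cell-Input. Ermn went from 53.9, 55.7, 50.99 and 55.3 CPM to 332, 341, 233 and 218 CPM. In each of the 9 genes every Cell-Input library lay above every Tissue-Input library. The share of all genes without overlap was not computed, here or in the comparisons below, so lack of overlap only describes these genes. The log2 fold changes were 1.40 ± 0.29 for Mbp (edgeR, adjusted p = 0.000183), 2.11 ± 0.42 for Mobp (0.000123), 1.99 ± 0.15 for Mag (7.89e-11), 2.17 ± 0.32 for Mog (4.59e-06), 1.76 ± 0.47 for Opalin (0.00229), 2.23 ± 0.37 for Cldn11 (1.4e-05), 2.43 ± 0.45 for Mal (5.31e-05), 1.92 ± 0.16 for Cnp (3.21e-10) and 2.47 ± 0.31 for Ermn (2.49e-07). Thus 9 of 9 were called higher, where 28.5% of all genes tested were, and the median over all genes was 0.17. Over the same step the median share of counts also moved for the markers of other cells, from 0.0315% to 0.695% for the 8 microglial ones, from 0.408% to 1.05% for the 7 astrocyte ones, from 0.00799% to 0.185% for the 7 endothelial ones and from 0.769% to 0.0923% for the 8 neuronal ones, with no marker of these lists at 0. The part of these shifts in the myelin values was not tested. In bulk libraries like these, fewer cells of a type and less RNA per cell cannot be told apart, and a gene's share also moves when other RNA is lost.

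The suspensions of the cell preparation table, from other mice, showed the same direction. Without inhibitors all 9 genes were called higher in Cell-Input than in Tissue-Input, from 1.62 ± 0.15 for Cnp to 2.05 ± 0.19 for Opalin (edgeR, largest adjusted p = 0.000209, for Mbp), against 25.6% of all genes. With inhibitors 8 were called, against 25.5% of all genes. The exception was Mbp at 0.95 ± 0.34 (adjusted p = 0.018), under the 2-fold limit, although its 4 libraries at 5821, 4182, 5851 and 3072 CPM all lay above those of Tissue-Input at 2243, 2521, 2099 and 1985 CPM. Tissue libraries are shared by these comparisons.

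**Figure D2:**
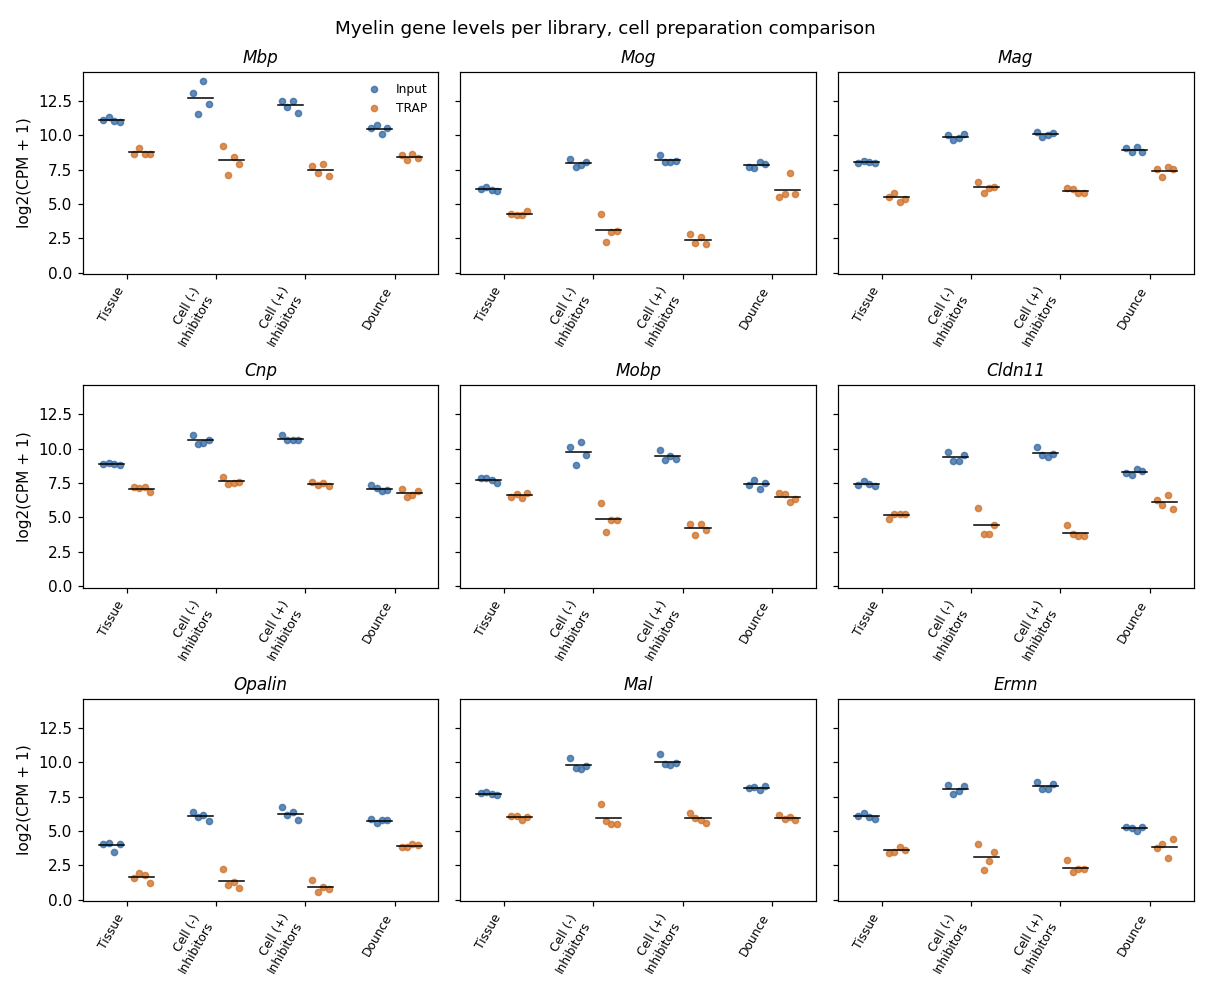
Level of each of the 9 myelin genes in every library of the cell preparation comparison, as log2(CPM + 1) on the vertical axis and by preparation on the horizontal axis, with Input in blue, TRAP in orange, 1 point per library and a bar at the group mean. Mbp and Mobp spread widest among the Cell-Input libraries without inhibitors, and in Dounce-Input Mog, Mag, Cldn11 and Opalin stand above Tissue-Input while Cnp and Ermn stand below it.

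In the cell preparation table Mbp and Mobp varied more between the Cell-Input suspensions made without inhibitors than the other genes did. In Cell-Input without inhibitors Mbp was at 8556, 2973, 15666 and 4891 CPM and Mobp at 1115, 455, 1458 and 741 CPM. Mog in the same 4 libraries was at 308, 200, 229 and 263 CPM. The third library, from mouse 1361, held the most Mbp and Mobp but not the most Mog. Counts of Mbp per count of Mog were 14.8 to 68.3 there, 11.03 to 22.3 in Cell-Input with inhibitors, 13.3 to 31.7 in Cell-Input of the sort table and 30.1 to 33.4 in sort Tissue-Input. Counts of Cnp per count of Mog stayed between 5.99 and 6.62, 5.44 and 6.06, 5.54 and 6.07, and 6.68 and 7.01 in those groups.

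Tagged ribosomes are made in Cx3cr1-expressing cells. TRAP was compared with Input to see how much of each gene's Input level was found in the pulldown. Whether that RNA sat on tagged ribosomes or was carried over from other cells was not tested, for Mag and Cnp in sorted cells as well. All 9 genes were called lower in Tissue-TRAP than in Tissue-Input of the sort table, where 1.87% of all genes tested were called lower. Opalin fell most, from 13.1, 13.5, 11.4 and 12.5 CPM to 0.579, 1.60, 1.65 and 1.63 CPM. Its log2 fold change was -3.19 ± 0.54 (edgeR, adjusted p = 1.06e-05). Mobp fell least, from 163, 163, 143 and 130 CPM to 57.99, 83.4, 67.5 and 71.3 CPM. Its change was -1.10 ± 0.34 (adjusted p = 0.0122). No TRAP library overlapped an Input library for any of the 9. In the second Tissue libraries of the same mice, in the cell preparation comparison, all 9 were called lower again, against 2.31% of all genes, from -1.15 ± 0.30 for Mobp to -2.79 ± 0.31 for Opalin.

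Put as the TRAP level in percent of the same mouse's Input level, the order in sort Tissue was 47.3 ± 8.46 (SD, n = 4) for Mobp, 32.6 ± 2.46 for Mal, 30.9 ± 4.01 for Mog, 30.6 ± 1.11 for Cnp, 21.3 ± 2.90 for Mbp, 18.7 ± 2.96 for Cldn11, 17.1 ± 2.29 for Mag, 16.9 ± 3.37 for Ermn and 10.9 ± 4.47 for Opalin. Mobp stood apart from Mal by more than their SDs together, while Mal, Mog and Cnp, and likewise Mbp, Cldn11, Mag, Ermn and Opalin, did not differ from the next gene in the order beyond their spread. The neuronal markers showed no such loss in the same libraries: 0 of 8 were called in either direction and their median log2 fold change was -0.12. Of the 7 astrocyte markers 1 was called higher, Slc1a2 at 1.11 ± 0.34 (adjusted p = 0.0108), and none lower. All 8 microglial markers were called higher, with a median of 4.54.

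**Figure D3:**
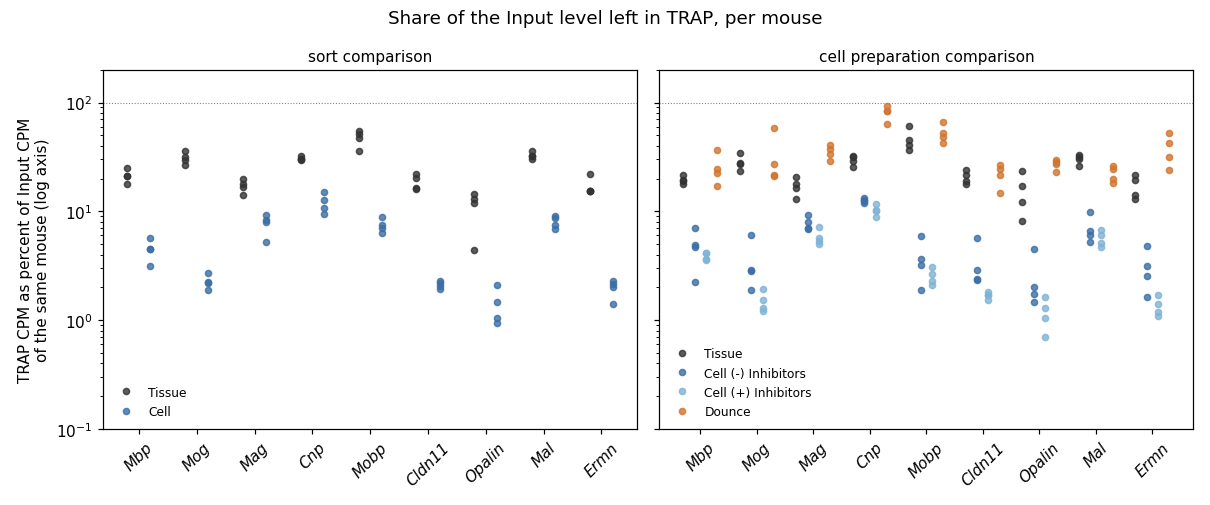
TRAP level of each myelin gene as a percent of the same mouse's Input level, on a log axis, for Tissue and Cell of the sort comparison (left) and Tissue, Cell without and with inhibitors and Dounce of the cell preparation comparison (right), with 1 point per mouse. On average every gene keeps a smaller percent in Cell than in Tissue, and Cnp keeps the most in Dounce, at 81.02% on average.

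From the cell suspension TRAP removed more. In the sort table all 9 genes were called lower in Cell-TRAP than in Cell-Input, against 30.9% of all genes, from -3.11 ± 0.13 for Cnp (edgeR, adjusted p = 5.66e-24) to -6.16 ± 0.63 for Opalin (adjusted p = 1.31e-10). Opalin in Cell-TRAP rested on 6, 10, 12 and 4 counts. Under DESeq2's size factors the median over all genes moved by -0.41 in this comparison and the percent of calls that were higher from 35.2 to 21.0. Cell-TRAP kept 12.0% ± 2.40 (SD, n = 4) of the Input level of Cnp, 8.04% ± 0.976 of Mal, 7.67% ± 1.70 of Mag, 7.48% ± 1.09 of Mobp, 4.46% ± 1.04 of Mbp, 2.25% ± 0.336 of Mog, 2.12% ± 0.142 of Cldn11, 1.96% ± 0.387 of Ermn and 1.38% ± 0.529 of Opalin. Mal, Mag and Mobp lay within their spread of each other, as did Mog, Cldn11, Ermn and Opalin, each beside its neighbour in that order. The suspensions without inhibitors kept 12.6% for Cnp and 2.42% for Opalin, and those with inhibitors 10.2% and 1.17%. There too 9 of 9 were called lower in TRAP than in Input, against 36.7% of all genes without and 35.8% with inhibitors.

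The difference between these TRAP effects was itself tested, as the interaction of fraction and preparation. In the sort table the loss was larger in Cell than in Tissue for all 9 genes, against 29.5% of all genes called in that direction and a median of -0.29 over all genes. The interaction was largest for Mog at -3.78 ± 0.47 (edgeR, adjusted p = 1.45e-08) and smallest for Mag at -1.18 ± 0.20 (adjusted p = 5.01e-06), with Cnp at -1.40 ± 0.17 and Mobp at -2.63 ± 0.49. For Cell without inhibitors in the other table, 9 of 9 genes were called as well, against 35.7% of all genes and a median of -0.61, from -1.12 ± 0.22 for Mag to -3.64 ± 0.43 for Mobp. With the mouse as a block, Mag at -0.67 and Cnp at -0.77 dropped under the 2-fold limit there. With DESeq2's size factors the median over all genes in the sort interaction moved by -0.32 and the percent of calls that were higher went from 16.3 to 5.23.

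Within TRAP, Cell and Tissue were closer, and the genes split. Mag was at 28.7, 40.3, 39.5 and 33.3 CPM in Tissue-TRAP and at 44.7, 80.7, 53.02 and 54.5 CPM in Cell-TRAP. Cnp was at 98.7, 107, 107 and 88.6 CPM and at 136, 139, 129 and 133 CPM. For both genes every Cell-TRAP library was above every Tissue-TRAP library, with log2 fold changes of 0.72 ± 0.12 for Mag (edgeR, adjusted p = 9.34e-06) and 0.43 ± 0.06 for Cnp (adjusted p = 1.26e-06), both under 2-fold. Mog, by contrast, was at 12.5, 18.3, 14.3 and 14.1 CPM in Tissue-TRAP and at 4.85, 6.99, 3.61 and 3.01 CPM in Cell-TRAP, with no overlap. Mog at -1.68 ± 0.45 (adjusted p = 0.00142) and Opalin at -1.29 ± 0.52 (adjusted p = 0.0312) were called lower, 2 of 9 against 29.3% of all genes. Mbp at -0.90 ± 0.20 and Cldn11 at -0.99 ± 0.24 passed the test but not the 2-fold limit, and Mal was at 0.32 ± 0.27 (adjusted p = 0.279). With the mouse as a block 4 genes were called lower, and with DESeq2's size factors 5, a scaling that moved the median of all genes by -0.33 and the percent of calls that were higher from 46.2 to 35.05. A shift of that size is close to the change of Cnp. The rises of Mag and Cnp, and their lack of overlap, are therefore given for the TMM scale alone.

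Cell-TRAP without inhibitors, set against Tissue-TRAP of its own table, gave 1 call lower, against 30.8% of all genes. That gene was Mobp, at 66.1, 14.5, 27.7 and 27.3 CPM against 86.7, 105, 86.2 and 111 CPM, a change of -1.47 ± 0.32 (edgeR, adjusted p = 0.000391). The first library, from mouse 156, was the highest of the 4 for all 9 genes. Without it, a setting chosen after the values were seen, 3 genes were called, with Mog at -1.59 and Cldn11 at -1.11. With inhibitors 6 genes were called lower, against 31.2% of all genes, from -1.07 ± 0.50 for Opalin to -2.38 ± 0.33 for Mobp, and Mal (-0.02 ± 0.26), Cnp (0.39 ± 0.14) and Mag (0.55 ± 0.18) were not.

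No gene was called between suspensions with and without inhibitors, which were made from the same 4 mice. In Input, with minus without inhibitors, the 9 genes ranged from -0.77 ± 0.34 for Mbp to 0.27 ± 0.17 for Cldn11, all with an adjusted p of 1 in edgeR's test and 0 of 9 called by edgeR, DESeq2 or limma, against 0.311% of all genes. At an unadjusted p under 0.05 there was 1. In TRAP they ranged from -1.04 ± 0.44 for Mog to -0.13 ± 0.26 for Mal, with adjusted p of 0.28 or more in edgeR's test. There were 0 called by any of the 3 tools, against 0.638% of all genes called by edgeR. At an unadjusted p under 0.05 there were 5, a limit at which the share of all genes was not computed. Mog in TRAP was at 18.6, 3.79, 6.66 and 7.37 CPM without inhibitors and at 5.91, 3.37, 5.05 and 3.34 CPM with them, lower in each mouse. With the mouse as a block, the fit that uses this pairing, 5 of the 9 genes passed an adjusted p of 0.1 in TRAP on the lower side, where 7.51% of all genes did. They were Mobp at -0.75 ± 0.18 (edgeR, adjusted p = 0.0182), Mbp at -0.70 ± 0.18 (0.0221), Ermn at -0.92 ± 0.24 (0.0251), Mog at -0.87 ± 0.25 (0.0438) and Cldn11 at -0.61 ± 0.18 (0.0441). None of these reached 2-fold, so the block called 0 as well. In Input none of the 9 passed with the block. Both comparisons include the widely spread suspensions without inhibitors.

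Every sort took the 9 genes far down in Input. Against Cell-Input all 9 were called lower after each, where 33.4% of all genes were after autoMACS, 33.7% after autoMACS to Tyto, 34.7% after Tyto and 34% after FACSAria, and no sorted library overlapped a Cell-Input library. Opalin passed the filter on low counts through Tissue-Input and Cell-Input alone, and Ermn through these and Tyto-Input. Only Mbp, Mag and Cnp passed it in FACSAria-Input, and only these and Mobp in autoMACS to Tyto-Input. The others entered through groups where they are higher, so that the count of 9 is no independent support. With Opalin left out, the log2 fold changes in autoMACS-Input ran from -3.87 ± 0.18 for Cnp to -8.78 ± 0.55 for Cldn11. In Tyto-Input they ran from -3.42 ± 0.16 for Cnp to -5.85 ± 0.46 for Mobp. These 4 comparisons share the Cell-Input libraries. Mog was at 0.756, 0.451, 1.70 and 1.59 CPM in autoMACS-Input and at 0 in all 3 libraries of autoMACS to Tyto-Input, which, with 3 counts per library as the least that can be told from 0, put it at least 623-fold lower than in Cell-Input. Opalin was at 0 in the same 3 libraries and at least 124-fold lower. It was at 0 in 10 of the 16 sorted Input libraries.

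Mbp, Mag and Cnp kept the most. Over the 16 sorted Input libraries the medians were 83.4 CPM for Mbp, 44.8 CPM for Mag and 104 CPM for Cnp, against 3.87 CPM for Mal, 3.32 CPM for Mobp, 1.55 CPM for Cldn11, 1.17 CPM for Mog and 0.941 CPM for Ermn. Mag spanned 33.3 to 77.7 CPM and Cnp 81.1 to 176 CPM in those libraries. Relative to Cell-Input these levels came to log2 fold changes of -5.72 ± 0.35 in autoMACS-Input and -5.20 ± 0.34 in FACSAria-Input for Mbp, of -4.23 ± 0.17 and -4.47 ± 0.17 for Mag, and of -3.87 ± 0.18 and -3.85 ± 0.18 for Cnp. Mog changed by -7.91 ± 0.48 and -8.43 ± 0.50. Astrocyte markers took 0.0155% to 0.0379% of the sorted Input libraries, none of the 7 being at 0, against 0.87% to 1.08% of Cell-Input.

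After sorting, TRAP held counts of Cnp, Mbp and Mag and little of the others. Over the 16 sorted TRAP libraries Cnp had a median of 1883 counts (lowest 1282, highest 2203), Mbp 821 counts (510 to 954) and Mag 649 counts (438 to 915). The other 6 were at or near nothing, with medians of 9 counts for Mal (0 to 34), 2.17 for Mobp (0 to 19), 2 for Mog (0 to 7), 2 for Cldn11 (0 to 6), 1.5 for Ermn (0 to 6) and 0 for Opalin (0 to 4), Opalin being listed at 0 in 13 libraries and Mog in 7. Mbp, Mag and Cnp together took 98.4% to 99.7% of the 9-gene counts in sorted TRAP, against 78.9% to 99.1% in sorted Input, 77.8% to 79.03% in sort Tissue-Input and 64.4% to 76.5% in Cell-Input.

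**Figure D4:**
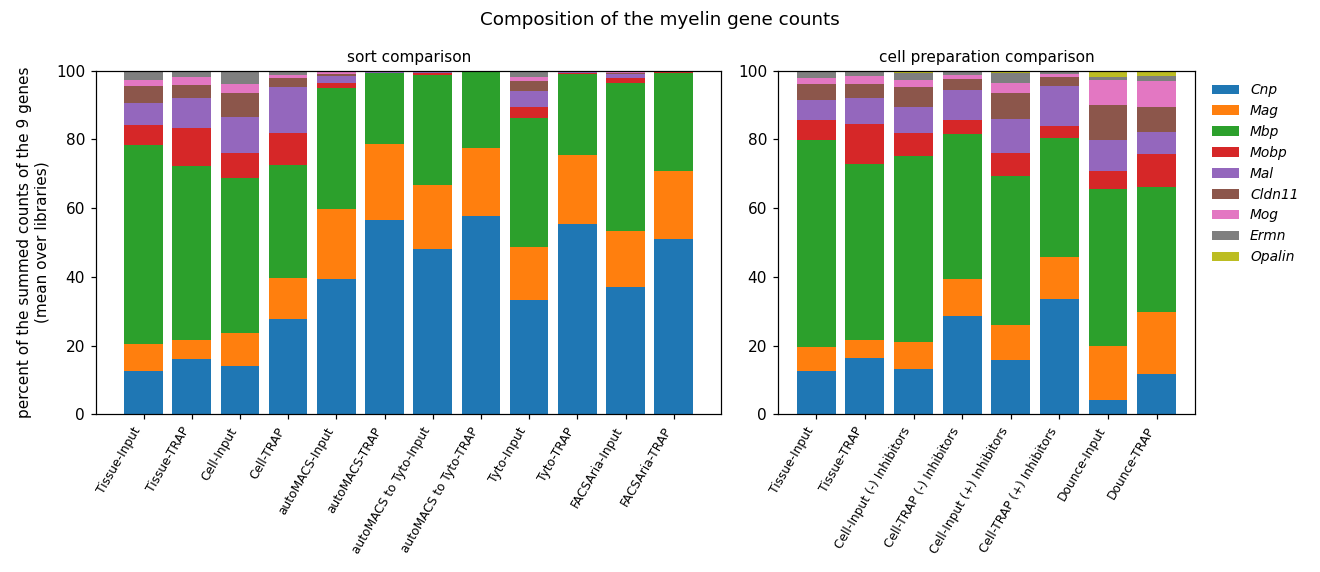
Share of each gene in the summed counts of the 9 myelin genes, in percent, for every preparation and fraction, as stacked bars of the group means. In sorted TRAP the bars are nearly filled by Cnp, Mbp and Mag, whereas Mbp takes most of the bar in Tissue-Input.

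The levels of Mag and Cnp were narrow across sorts. Mag was at 48.5, 48.5, 49.3 and 49.4 CPM in autoMACS-TRAP, and over all 16 sorted TRAP libraries at 39.9 to 49.4 CPM, beside 44.7 to 80.7 CPM in Cell-TRAP. Cnp was at 111 to 133 CPM, beside 129 to 139 CPM in Cell-TRAP. Mbp was at 38.3 to 71.9 CPM, beside 90.6 to 245 CPM. Against Cell-TRAP, Mag changed by -0.27 ± 0.12 in autoMACS-TRAP (edgeR, adjusted p = 0.0719) and by -0.44 ± 0.12 in Tyto-TRAP (adjusted p = 0.00248), and Cnp by -0.13 ± 0.06 (adjusted p = 0.095) and -0.17 ± 0.06 (adjusted p = 0.0207). None of these passed the 2-fold limit. Mbp was called lower, by -1.93 ± 0.21 in autoMACS-TRAP (adjusted p = 3.86e-08) and by -1.42 ± 0.21 in FACSAria-TRAP (adjusted p = 4.22e-06). Per kilobase the order in autoMACS to Tyto-TRAP was Cnp at 35.5 ± 0.876 CPM per kb (SD, n = 3), Mag at 10.8 ± 0.359 and Mbp at 5.85 ± 0.426, and all others lay under 1.

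Of the 9 genes 7 were thus called lower than in Cell-TRAP after each sort, where 23% of all genes were after autoMACS, 21.7% after autoMACS to Tyto, 23.2% after Tyto and 21.9% after FACSAria, the exceptions being Mag and Cnp each time. The filter on low counts was passed by Mog, Mobp, Cldn11, Ermn and Opalin through Tissue-TRAP or Cell-TRAP alone, where they are high, so that the count is no independent support. Mog fell by 5.07 ± 0.67 in autoMACS-TRAP and Mal fell by 6.23 ± 0.40. Cldn11 was at 0 in all 3 autoMACS to Tyto-TRAP libraries and at least 52.2-fold lower than in Cell-TRAP. Opalin was at 0 in all autoMACS-TRAP and all FACSAria-TRAP libraries, at least 3.20-fold and 2.57-fold lower, bounds set by its few counts in Cell-TRAP. For genes with 3 counts or fewer in every library of a group no fold is given.

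TRAP was also set against Input within each sort. In no sorted TRAP group did Mog, Mobp, Cldn11, Ermn or Opalin pass the filter on low counts. They entered through Input, Tissue-TRAP or Cell-TRAP groups, where they are higher, so the counts called below are no independent support. In Tyto, 7 of 9 genes were called lower in TRAP, against 16.9% of all genes, and Cnp (-0.07 ± 0.11) and Mag (-0.43 ± 0.13) were not. Mog went from 4.58, 11.4, 1.97, 3.20 and 2.39 CPM to at most 0.41 CPM. In autoMACS 5 were called lower, against 17.4% of all genes. Mbp there was at -0.91 ± 0.28 (edgeR, adjusted p = 0.01), Mag at -0.02 ± 0.15 and Cnp at 0.40 ± 0.12 (adjusted p = 0.00984). In FACSAria 4 were called lower, against 10.2%, and 0 were with the mouse as a block or without FACSAria-Input of mouse 991, the library with the most Mbp and Mobp of its group. In autoMACS to Tyto no gene was called by edgeR, against 5.4% of all genes in either direction, with 2 at an unadjusted p under 0.05, 1 called with the mouse as a block, 4 by DESeq2 and 3 by limma. Mean TRAP level in percent of Input was 101 for Mag and 134 for Cnp in autoMACS, 112 and 125 in FACSAria, and 76.8 and 98.7 in Tyto, while Mbp kept 55.3 in autoMACS, 64.5 in FACSAria and 38.5 in Tyto.

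The cartridge and the cytometer were compared directly, with mice 69, 945 and 991 in both groups. Between Tyto-TRAP and FACSAria-TRAP no gene was called by edgeR, DESeq2 or limma, against 0.0936% of all genes called by edgeR. At an unadjusted p under 0.05 there were 0 of 9, a limit at which the share of all genes was not computed. Differences of the genes above the floor lay between -0.33 ± 0.20 for Mbp and 0.34 ± 1.03 for Mog. In Input 4 genes were higher after the cartridge. Cldn11 was at 5.51 to 31.8 CPM in Tyto-Input and at 0.375 to 3.28 CPM in FACSAria-Input. The difference was 3.28 ± 0.55 (adjusted p = 0.0136) with no overlap. Mog at 2.74 ± 0.57 (adjusted p = 0.043) and Ermn at 2.59 ± 0.48 (adjusted p = 0.017) also did not overlap, and Mal at 2.46 ± 0.54 (adjusted p = 0.0559) did. These 4 of 9 stood against 0.349% of all genes called higher, and Mbp (0.30 ± 0.28), Mag (0.51 ± 0.15), Cnp (0.43 ± 0.15), Mobp (1.28 ± 0.50) and Opalin were not. The 4 genes passed the filter on low counts in Tyto-Input and other groups but not in FACSAria-Input. Their count is therefore no independent support. In a fit of only the groups compared, 0 were called. With the mouse as a block none of the 4 was called, at differences of 3.44 for Cldn11, 2.97 for Ermn, 2.84 for Mog and 2.31 for Mal over the 3 shared mice. Without Tyto-Input of mouse 69 there were 3, and without FACSAria-Input of mouse 991 there were 5, Mobp then at 2.80 (adjusted p = 0.00297).

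Passing the bead fraction through the cartridge lowered Mal in Input, from 2.94 to 9.64 CPM in autoMACS-Input to 0.196 to 0.424 CPM. This change of -3.85 ± 1.05 (edgeR, adjusted p = 0.0588) was the only one called lower of 9, against 1.48% of all genes. With the mouse as a block 2 were called. The count was 0 in a fit of only the groups compared, and 0 when replicate 1, 2 or 3 was left out of every group. Mog, at 0 afterwards, was at least 3.49-fold lower, and Mbp changed by -0.26 ± 0.32, Mag by -0.26 ± 0.17 and Cnp by 0.16 ± 0.17. In TRAP, Mal at -3.05 ± 1.07 (adjusted p = 0.0512) and Cldn11 were called lower, against 0.669% of all genes, and Opalin higher, against 1.7%. Cldn11 and Opalin had few counts in either group, and with the mouse as a block 1 gene was called in place of 3.

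Cold mechanical dissociation, in mice used for no other preparation, gave another pattern in Input. Against Tissue-Input, Dounce-Input held more Mog, at 204, 192, 260 and 244 CPM against 66.5, 73.5, 63.1 and 61.4 CPM, and less Cnp, at 161, 139, 120 and 128 CPM against 462, 492, 464 and 444 CPM. Neither gene overlapped between the groups. Mog rose by 1.97 ± 0.15 (edgeR, adjusted p = 6.1e-10), Opalin by 2.06 ± 0.20 (1.4e-08), Mag by 1.13 ± 0.13 (1.57e-07) and Cldn11 by 1.10 ± 0.17 (9.18e-06), 4 of 9 against 28.7% of all genes called higher. Cnp changed by -1.56 ± 0.15 (1.2e-08), the 1 gene called lower, against 21.4% of all genes. Ermn at -0.66 ± 0.16 (0.00083) and Mal at 0.62 ± 0.17 (0.0033) passed the test without reaching 2-fold, and Mbp at -0.41 ± 0.34 (0.283) and Mobp at -0.12 ± 0.25 (0.67) did not pass it. RNA integrity and coverage along the gene body, which differed between these preparations in the study's own assays, are not in the tables used here, and their part in the Dounce values was not tested.

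The proportions among the genes shifted accordingly. Counts of Cnp per count of Mog were 0.459 to 0.787 in Dounce-Input, against 6.70 to 7.36 in Tissue-Input and 5.99 to 6.62 in Cell-Input without inhibitors. Counts of Mbp per count of Mog were 4.25 to 8.95, and counts of Mag per count of Mog 1.82 to 2.61. For Cnp per Mog no library of the other 2 groups overlapped these values. In total the 9 genes took 0.392% ± 0.0219 (SD, n = 4) of Dounce-Input, 0.380% of Tissue-Input and 1.34% ± 0.582 of Cell-Input without inhibitors. Against that suspension 5 genes were called lower in Dounce-Input, against 28.1% of all genes: Cnp (-3.18 ± 0.16), Ermn (-2.54 ± 0.16), Mbp (-2.12 ± 0.35), Mobp (-2.10 ± 0.26) and Mal (-1.34 ± 0.18). Opalin at 0.01 ± 0.18 (edgeR, adjusted p = 0.972) and Mog at 0.20 ± 0.14 (0.22) did not pass the test. Neuronal markers took 0.346% to 0.388% of Dounce-Input and 0.0439% to 0.0823% of Cell-Input without inhibitors, and astrocyte markers 0.132% to 0.355% and 0.677% to 1.06%, with none of either list at 0. Their part in these values was not tested.

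In Dounce-TRAP, Mog was at 43.7, 52.4, 151 and 51.6 CPM, Mag at 181, 125, 209 and 182 CPM and Opalin at 12.9, 13.6, 15.5 and 14.9 CPM, each above every Tissue-TRAP library. Called higher than Tissue-TRAP were Mog at 2.07 ± 0.42 (edgeR, adjusted p = 0.000245), Mag at 2.04 ± 0.19 (1.61e-08), Opalin at 2.79 ± 0.48 (4.32e-05) and Cldn11 at 1.04 ± 0.35 (0.012), 4 of 9 against 23.2% of all genes. The third library, from mouse 181, was the highest of the 4 for Mog, Cldn11, Mag, Opalin and Mbp, and without it Cldn11 was at 0.85 and 3 genes were called. Cnp was at -0.25 ± 0.14 (adjusted p = 0.114) and Mal at 0.01 ± 0.27. Set against Cell-TRAP without inhibitors, 5 genes were called higher, against 20.7% of all genes, with Mog at 3.02 ± 0.43, Opalin at 3.01 ± 0.48, Cldn11 at 1.52 ± 0.35, Mobp at 1.41 ± 0.32 and Mag at 1.22 ± 0.18, while Cnp at -0.82 ± 0.14 passed the test on the lower side. Without the Cell-TRAP library of mouse 156, 6 were called.

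TRAP lowered most of the genes in the Dounce suspension. Compared with Dounce-Input, 7 of 9 genes were called lower in Dounce-TRAP, against 26.7% of all genes, from -1.36 ± 0.29 for Ermn to -2.20 ± 0.29 for Cldn11. Cnp at -0.31 ± 0.14 (edgeR, adjusted p = 0.0557) and Mobp at -0.94 ± 0.31 (adjusted p = 0.00774) were not called. Cnp kept 81.02% ± 12.6 (SD, n = 4) of its Input level, Mobp 52.4% ± 9.94, Ermn 37.6% ± 12.4, Mag 35.3% ± 5.00, Mog 31.96% ± 17.6 and Mbp 25.1%. For Mog the range was 21.2% to 58.01%, the upper end being mouse 181. Against Tissue the TRAP effect was weaker in Dounce for Cnp by 1.45 ± 0.20 (adjusted p = 8.46e-07), Ermn by 1.23 ± 0.39 (adjusted p = 0.0117) and Mag by 1.06 ± 0.22 (adjusted p = 0.00025), 3 of 9 against 11.8% of all genes. For Mag the value was 0.98 with the mouse as a block and 0.74 without the library of mouse 181, under 2-fold in both. With DESeq2's size factors the median of all genes moved by -0.20 in this comparison and the percent of calls that were higher from 39.2 to 25.4. Microglial markers took 3.41% to 3.9% of Dounce-TRAP and 3.22% to 3.68% of Cell-TRAP without inhibitors, while neuronal markers took 0.103% to 0.19% and 0.00741% to 0.0179%. The part of the latter in the Dounce values was not tested.

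Other oligodendrocyte genes gave the setting. In Cell-Input against Tissue-Input of the sort table, where 28.5% of all genes were called higher, 14 of 15 further genes of the myelin membrane and node were called higher (median 1.78), as were 6 of 6 of myelin lipid synthesis (2.38), 14 of 15 other genes of mature oligodendrocytes (1.71) and 6 of 7 oligodendrocyte transcription factors (1.43), and 3 of 8 progenitor and premyelinating genes (0.77). Ugt8a, the enzyme that makes the galactolipid of myelin, was at 3.00 ± 0.33 and Pmp22, a myelin membrane protein, at 2.80 ± 0.17. Nfasc, the node adhesion gene, was at 0.52 ± 0.38 (edgeR, adjusted p = 0.232) and Pdgfra, the receptor of progenitors, at 0.39 ± 0.38 (adjusted p = 0.37).

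In Tissue-TRAP against Tissue-Input 8 of those 15 membrane and node genes, 4 of 6 lipid genes, 10 of 15 other mature genes, 5 of 7 factors and 4 of 8 progenitor genes were called lower, with medians of -1.06, -1.29, -1.74, -1.06 and -1.09. Of all genes tested, 1.87% were called lower there. Klk6, a secreted protease, was at -3.61 ± 0.46. After bead sorting, in autoMACS-TRAP against Cell-TRAP, 12 of 14 membrane and node genes, 5 of 6 lipid genes, 11 of 15 other mature genes, 6 of 7 factors and 8 of 8 progenitor genes were called lower. Of all genes tested, 23% were called lower there. In mean summed share of counts the other mature genes did not fall, at 0.278% of Cell-TRAP and 0.332% of autoMACS-TRAP. The membrane and node genes went from 0.0757% to 0.0392% and the lipid genes from 0.0103% to 0.00806%. The factors went from 0.00434% to 0.00155% and the progenitor genes from 0.00202% to 0.00023%. Among the list genes, 6 progenitor genes and 4 factors had 3 counts or fewer in every autoMACS-TRAP library. They passed the filter on low counts only through other groups, so the list counts are no independent support. Sox10, the factor that drives myelin genes, and Gpr37 were at 0 in all 4 autoMACS-TRAP libraries. Like Mag and Cnp, some list genes were not called, among them Jam3 (0.16 ± 0.12), Pmp22 (0.20 ± 0.08), Elovl1 (0.12 ± 0.07), Tppp (0.02 ± 0.09), Qdpr (0.04 ± 0.07) and Zfp488 (0.47 ± 0.24).

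In Dounce-Input against Tissue-Input, where 28.7% of all genes were called higher and 21.4% lower, 7 of 15 membrane and node genes and 5 of 6 lipid genes were called higher and none lower. Of the 15 other mature genes 4 were higher and 2 lower, shares near those of all genes or below them. Gjc3, a gap junction gene, was at 2.78 ± 0.12, Hapln2, a protein of the nodal matrix, at 2.55 ± 0.15 and Aspa, the enzyme that splits N-acetylaspartate, at 2.06 ± 0.16. Cryab, a small heat shock protein, was at -1.50 ± 0.15. The factors Zfp488 at 2.91 ± 0.15 and St18 at 2.14 ± 0.22 were called higher, whereas Olig2 at -0.14 ± 0.13 and Nkx6-2 at 0.03 ± 0.15 were not.

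Genes with the pattern most like the 9 were sought by Pearson's correlation of log2(CPM + 1) group means with the mean of the 9, over the 12 groups of the sort table, among all genes that are not members. The 8 nearest were Lpar1 (0.996), Nkx6-2 (0.995), Fa2h (0.994), Ugt8a (0.993), Il33 (0.993), Gpr37 (0.992), Tmem88b (0.992) and Bcas1 (0.990). Over the 8 groups of the cell preparation table the same genes were at 0.961 to 0.997. Of the 9 themselves, Ermn (0.998), Cldn11 (0.996), Mog (0.995) and Mbp (0.988) followed their common mean most closely and Mag (0.886) and Cnp (0.864) least there. Over the 8 groups of the other comparison the order differed, with Cnp (0.819), Mog (0.942) and Opalin (0.953) lowest and Mag at 0.967. Group means share libraries within a table, so these correlations describe the pattern and carry no test.

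Where Mbp lies, chr18:82475123-82585637 on mm10, its span takes in the Golli transcripts as well as the myelin ones, and its merged exons add up to 8469 bases. The counts of Mbp are per gene and do not separate these transcripts, and Rpl21-ps8 lies within the span on the other strand. The level of Mbp that stayed in sorted TRAP can therefore not be assigned to either kind of transcript from these tables.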

How the data were processed

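RNA-Seq libraries (poly(A)-selected, strand-specific) were made from Input and TRAP RNA. Per the methods, the authors aligned reads to mm10 in Strand NGS, removed duplicates and normalized with DESeq2, which the submitters' processing notes also name. The deposited tables hold expected counts, which need not be whole, and normalized log2 values. Here 80 libraries in 20 groups were used, grouped by their labels. The deposited earlier inhibitor table, which holds some of the same libraries, was not used.

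Expected counts were rounded and tested with edgeR 4.0.16 (glmQLFit, glmQLFTest) in R 4.3.3 with TMM, within each table. Input, TRAP, and both together were fitted over all groups of a table. Genes with more than 5 counts in every library of at least 1 group entered, which all 9 myelin genes did in every fit. P-values were adjusted over all genes tested, and a call needed an FDR under 0.1 and a fold above 2. Standard errors were derived from the log2 fold change and its F statistic. Folds against a group at 0 are bounds at 3 counts per library. Alternatives were DESeq2's size factors, DESeq2 1.42.0, limma 3.58.1 on the deposited log2 values, no filter, only the groups compared, the mouse as a block, each replicate number left out of all groups at once, and single libraries that stood apart. Gene models for lengths and overlaps were GENCODE vM21, of the same build. Promoter motifs, ratios, shares and figures were computed in Python 3.11.15 (pandas 2.3.3, numpy 2.4.6, matplotlib 3.10.9). The fit was tested on simulated counts.

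The named genes are the 9, and of each further list the 2 with the largest and the 2 with the smallest absolute change in a comparison, plus the 8 genes most alike. Not every gene that this rule names is reported here. The myelin genes and the lists were chosen with earlier results of these data known. Labels give mouse numbers, so that Input and TRAP, and some preparations, come from the same animal. Deviations from the group means correlated within mice over the genes in Tissue-TRAP and Cell-TRAP of the sort table with a median r of 0.205, against -0.084 between mice. Between TRAP and Input of the sort table the median within mice was 0.505 in Tyto, 0.458 in FACSAria and 0.437 in autoMACS to Tyto. It was 0.419 in Cell, 0.180 in Tissue and 0.119 in autoMACS. Separate mice were separate samples. No 2 libraries of a group agreed within sampling noise, the smallest chi-square per degree of freedom being 3.63. Precision is limited by 3 to 5 mice a group, and intervals of counts at the floor cover counting error only.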

Additional observations from a re-analysis of the deposited data

Results flagged for a closer look

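Of 143 combinations of gene and group with enough counts and 4 or 5 libraries, 23 held a library whose gap to the next was large for the range of the group, where chance gives about 1 in 20, or 7.15. Values are CPM, with the range of the others in brackets. In Tyto-Input the library of mouse 69 was high for Mog at 11.4 (1.97 to 4.58), Cldn11 at 31.8 (5.51 to 10.3) and Ermn at 13.5 (4.20 to 6.82). In FACSAria-Input the library of mouse 991 was high for Mbp at 221 (82.8 to 89.1), Mobp at 14.7 (0.469 to 2.61) and Ermn at 3.02 (0.271 to 0.530), and in FACSAria-TRAP the same mouse was high for Mal at 2.33 (0.00561 to 0.279). In autoMACS-Input mouse 72 was high for Mbp at 123 (72.0 to 75.9).

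In Cell-TRAP of the sort table mouse 947 was high for Mal at 95.8 (54.9 to 61.5) and Ermn at 6.83 (4.66 to 5.00). In Tissue-Input the same mouse was high for Mag at 227 (199 to 203) and Mal at 174 (162 to 163). In Tissue-TRAP mouse 946 was low for Opalin at 0.579 (1.60 to 1.65) and mouse 948 high for Ermn at 11.2 (8.19 to 8.49).

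In the cell preparation table mouse 156 stood out most often. Its Cell-Input with inhibitors was high for Mog at 383 (260 to 279), Cnp at 2085 (1561 to 1589) and Mal at 1533 (904 to 975), its Cell-TRAP without inhibitors for Mal at 124 (44.3 to 50.9) and its Cell-TRAP with inhibitors for Cldn11 at 20.6 (11.3 to 12.7). In Tissue-Input mouse 948 was low for Opalin at 10.2 (15.9 to 16.6), in Tissue-TRAP mouse 947 was high for Mbp at 545 (386 to 401) and mouse 946 low for Cldn11 at 29.2 (36.8 to 37.3), and in Dounce-TRAP mouse 181 was high for Mog at 151 (43.7 to 52.4).

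The effect of TRAP differed between preparations by the test of the interaction (edgeR, log2 scale). Between Cell and Tissue of the sort table it differed by -2.22 for Mbp, -3.78 for Mog, -1.18 for Mag, -1.40 for Cnp, -2.63 for Mobp, -3.15 for Cldn11, -2.97 for Opalin, -2.03 for Mal and -3.16 for Ermn. Between Cell without inhibitors and Tissue of the cell preparation table it differed by -2.24 for Mbp, -2.92 for Mog, -1.12 for Mag, -1.24 for Cnp, -3.64 for Mobp, -2.52 for Cldn11, -2.42 for Opalin, -2.05 for Mal and -2.36 for Ermn. Between Dounce and Tissue it differed by 1.06 for Mag, 1.45 for Cnp and 1.23 for Ermn.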

How the results depend on the processing

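Of 396 counts of myelin genes called, recomputed under an alternative, 358 stayed within 1.5 times of the reported one, and of 3217 single values 3042 kept their direction and their side of the threshold and 60 changed sign. The cause of each change was not tested. For autoMACS to Tyto-Input against autoMACS-Input (1 called) DESeq2 and limma called 3, the fit of only the groups compared 0 and the mouse as a block 2. For Tyto-Input against FACSAria-Input (4 called) only the groups compared, and the block, gave 0. For Cell-TRAP against Tissue-TRAP (2 called) the size factors, DESeq2 and limma gave 5 and the block 4. For autoMACS to Tyto-TRAP against autoMACS-TRAP (3 called) limma, only the groups compared and the block gave 1. For TRAP against Input in autoMACS to Tyto (0 called) DESeq2 gave 4, limma 3, and only the groups compared and the block 1. For FACSAria (4 called) only the groups compared and the block gave 0. For Cell-TRAP without inhibitors against Tissue-TRAP (1 called) no filter and limma gave 2, and for the TRAP effect of Dounce against Tissue (3 called) limma gave 1. The mouse as a block moved no other count of calls by over 1.5 times.

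Values near 0 changed sign. In Cell-TRAP against Tissue-TRAP of the sort table Mal was at -0.0065 with size factors, -0.0045 with DESeq2 and -0.14 with limma. In Tyto-TRAP against FACSAria-TRAP Mobp was at 0.34 with limma and 0.59 with the block, and Mag at 0.0072 with the block. In TRAP against Input of autoMACS Mag was at 0.037 with size factors, 0.036 with DESeq2, 0.017 with limma, 0.030 with only the groups compared and 0.042 with the block. In Dounce-Input against Cell-Input Opalin was at -0.053 with limma. Within TRAP of that table Mal was at -0.0054 with limma for Cell without inhibitors, at 0.050 with only the groups compared for Cell with inhibitors, and for Dounce at -0.048 with size factors, -0.064 with no filter, -0.047 with DESeq2 and -0.046 with limma. In the TRAP effect of Dounce against Tissue Cldn11 was at -0.12 with size factors, -0.11 with DESeq2, -0.14 with limma and -0.0091 with the block, and Mog at -0.13 with limma.

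The summed share of the 9 genes, with the TMM library size in place of the raw total, was 0.0218% for Tyto-TRAP, 0.0229% for FACSAria-TRAP, 0.0220% for autoMACS-TRAP, 0.0212% and 0.0224% for autoMACS to Tyto-Input and TRAP, 0.820% for Cell-Input, 0.261% for Tissue-Input and 0.0632% for Tissue-TRAP of the sort table, and 0.315% for Dounce-Input. DESeq2's size factors moved the median of all genes by over 0.1 in 12 of 37 comparisons, by -0.41 to 0.16.

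Each replicate number was left out of all groups of a fit at once, which can also drop libraries outside the groups compared, and 6 single libraries, chosen after the values were seen, were left out alone. Over these settings the count called ran from 0 to 2 for autoMACS to Tyto-Input against autoMACS-Input, 0 to 5 for Tyto-Input against FACSAria-Input, 0 to 3 for autoMACS to Tyto-TRAP against autoMACS-TRAP, 0 to 1 for TRAP against Input in autoMACS to Tyto, 0 to 5 in FACSAria, and 1 to 3 for Cell-TRAP without inhibitors against Tissue-TRAP. Single values that changed sign ran as follows. Mbp in Tyto-Input against FACSAria-Input ran from -0.0109 to 0.828. In Tyto-TRAP against FACSAria-TRAP Mal ran from -0.466 to 2.19, Mobp from -0.86 to 0.512, Cldn11 from -0.302 to 0.279 and Mog from -0.721 to 4.07. In TRAP against Input, Mag ran from -0.0836 to 0.103 in autoMACS and Cnp from -0.135 to 0.0842 in Tyto. Opalin in Dounce-Input against Cell-Input ran from -0.103 to 0.106. In TRAP of the cell preparation table, against Tissue, Mal ran from -0.401 to 0.265, Mbp from -0.86 to 0.0495 and Opalin from -0.97 to 0.126 without inhibitors, Mal from -0.168 to 0.0941 with them, and Mal from -0.0734 to 0.0799 and Mobp from -0.26 to 0.0586 in Dounce. Also in TRAP, Mal ran from -0.247 to 0.378 between suspensions with and without inhibitors, and Dounce against Cell without inhibitors gave -0.255 to 0.413 for Mal and -0.112 to 0.529 for Mbp. In the TRAP effect of Dounce against Tissue Cldn11 ran from -0.315 to 0.322, Mobp from -0.104 to 0.441, Mog from -0.564 to 0.512 and Mbp from -0.167 to 0.527. Depth limits Opalin, Mog, Mobp, Cldn11 and Ermn in sorted TRAP, where most libraries held 3 counts or fewer.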
